A study of Homo sapiens with 4 samples.

Results

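In the extended transcript annotation of human induced neurons, 3811 of 10347 unannotated transcripts used only introns that were already annotated. They are called combination transcripts here. Each has more than 1 exon and lies in an annotated gene, each of its exons overlaps an annotated exon on the same strand, and each of its introns occurs in at least 1 annotated transcript. What is unannotated is the chain of consecutive introns in 1 molecule. The full annotation held 392871 transcripts, and the combination transcripts came from 2932 genes. For comparison, 3725 unannotated transcripts had an unannotated intron between known exons, 1992 had an unannotated exon and 819 lay in unannotated genes.

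Long-read PacBio sequencing of polyadenylated RNA was used in 4 libraries, 1 per group, so no difference between groups has a replicate check. The cells were cortical neurons made from an engineered derivative of KOLF2.1J, a widely used stem cell line of induced pluripotent type, in which doxycycline switches on the neurogenic factor NGN2. All 4 groups carried a constitutive dCas9-BFP-KRAB construct, which silences the gene that a guide RNA points to, and each was a puromycin-selected pool of cells that received its guide by lentivirus. The control had a non-targeting guide and no drug. The knockdown had a guide against TDP-43 and no drug. The azacytidine group had 5 µM 5-azacytidine for 72 hours, in cells that its label calls control, and the last group had both the TDP-43 guide and the drug. Cultures were harvested on day 12 or day 15, and which day applies to which library was not given in the sources used here. Where 4 values stand in a row below without library names, their order is control, knockdown, azacytidine, both treatments.

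A precursor RNA is cut at several introns, and the choices made at distant introns of the same molecule can be independent or coupled. Short reads see 1 or 2 neighbouring junctions at a time, whereas a long read spans the chain and shows which choices occur together. Alternative first exons, cassette exons, microexons and retained introns are common in neurons, where they change adhesion receptors, channels and cytoskeletal proteins. TDP-43 is a nuclear RNA-binding protein best known for keeping cryptic exons out of messenger RNA. 5-azacytidine is incorporated into nucleic acids and inhibits DNA methyltransferases.

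Sequence stretches that mark the combination transcripts described below are given first. In the first 7 the stretch in capitals is left out by the combination transcript and held by its closest annotated transcript. In the last it is a microexon that the combination transcript holds. Lower case marks 20 bases on either side in the spliced RNA, read 5′ to 3′ on the transcript's strand. All stretches are coding in GENCODE 29 (GRCh38), from which they were read. Positions are NEO1 chr15:73270010-73270057 (plus strand), PUM2 chr2:20278583-20278819 (minus), APLP2 chr11:130123612-130123779 (plus), MSI1 chr12:120351344-120351400 (minus), RAPGEF4 chr2:172960760-172960813 (plus), LRCH3 chr3:197866112-197866219 (plus), NCAM1 chr11:113246368-113246370 (plus) and PTPRF chr1:43602071-43602097 (plus).
NEO1 acceptor stretch: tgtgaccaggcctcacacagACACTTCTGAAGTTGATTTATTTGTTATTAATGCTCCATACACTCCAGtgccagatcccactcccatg
PUM2 exon: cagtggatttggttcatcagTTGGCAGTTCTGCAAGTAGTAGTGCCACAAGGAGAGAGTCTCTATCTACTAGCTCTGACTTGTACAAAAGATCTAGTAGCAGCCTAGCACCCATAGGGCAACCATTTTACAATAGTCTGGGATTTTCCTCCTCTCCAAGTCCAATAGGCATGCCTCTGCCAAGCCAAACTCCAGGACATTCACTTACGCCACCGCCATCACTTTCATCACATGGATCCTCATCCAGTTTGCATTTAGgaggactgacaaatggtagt
APLP2 exon: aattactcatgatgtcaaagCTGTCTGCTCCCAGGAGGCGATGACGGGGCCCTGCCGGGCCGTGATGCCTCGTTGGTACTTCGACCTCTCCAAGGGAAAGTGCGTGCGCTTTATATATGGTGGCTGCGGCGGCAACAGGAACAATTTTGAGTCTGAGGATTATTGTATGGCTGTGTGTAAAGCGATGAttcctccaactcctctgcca
MSI1 exon: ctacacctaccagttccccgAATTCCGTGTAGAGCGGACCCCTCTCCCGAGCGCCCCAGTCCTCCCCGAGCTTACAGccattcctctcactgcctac
RAPGEF4 exon: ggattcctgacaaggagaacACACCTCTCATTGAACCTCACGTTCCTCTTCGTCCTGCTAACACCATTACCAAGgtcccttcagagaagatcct
LRCH3 exon: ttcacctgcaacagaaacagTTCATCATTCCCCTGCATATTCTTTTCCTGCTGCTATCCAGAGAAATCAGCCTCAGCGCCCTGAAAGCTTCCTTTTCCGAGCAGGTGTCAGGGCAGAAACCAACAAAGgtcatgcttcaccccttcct
NCAM1 3-base exon: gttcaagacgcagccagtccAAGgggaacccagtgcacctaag
PTPRF microexon: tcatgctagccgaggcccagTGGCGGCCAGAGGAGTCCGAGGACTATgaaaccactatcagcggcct
All 8 stretches are whole numbers of codons, from 1 codon in NCAM1 to 79 in PUM2. The APLP2 exon encodes a Kunitz-type protease inhibitor domain in this relative of the amyloid precursor protein. None of the 7 stretches left out shifts the reading frame.

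The combination transcripts were first sorted by where their novelty lay. In 1884 (49.4%) every neighbouring pair of introns was annotated and only the longer chain was not. In 1694 (44.5%) at least 1 pair of neighbouring introns was not a neighbouring pair in any annotated transcript. The remaining 233 (6.11%) joined introns annotated to more than 1 gene. The introns of 1042 (27.3%) all occurred in 1 annotated transcript, which has further introns in between. Introns of 2 annotated transcripts were enough for 2605 (68.4%), and 164 (4.30%) needed 3 or more.

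Runs of consecutive introns were then searched for the shortest that no annotated transcript holds without another intron in between. It had 2 introns in 1850 transcripts, 3 in 608, 4 to 5 in 721 and 6 to 10 in 508. In 124 it had 11 or more, with a longest run of 28. The spliced distance between the outer introns of that run had a median of 578 bases (interquartile range 307 to 1084). In the 1961 with a run of 3 or more introns it was 539 bases, over a genomic distance with a median of 6049 bases. In 1559 of those 1961 (79.5%) the outer introns of the run shared no annotated transcript at all. Over all 3811 combination transcripts, this held for 2455 (64.4%). Where the run was 2 introns, the exon between them spanned an annotated intron in 1019 (55.1%), was itself an annotated exon in 660 (35.7%) and paired an acceptor and a donor in another way in 171 (9.24%). The combination transcripts had a median of 8 exons and 3043 bases. Their start lay within 50 bases of an annotated start of the gene in 76.7%, and their end within 50 bases of an annotated end in 77.7%.

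**Figure D1:**
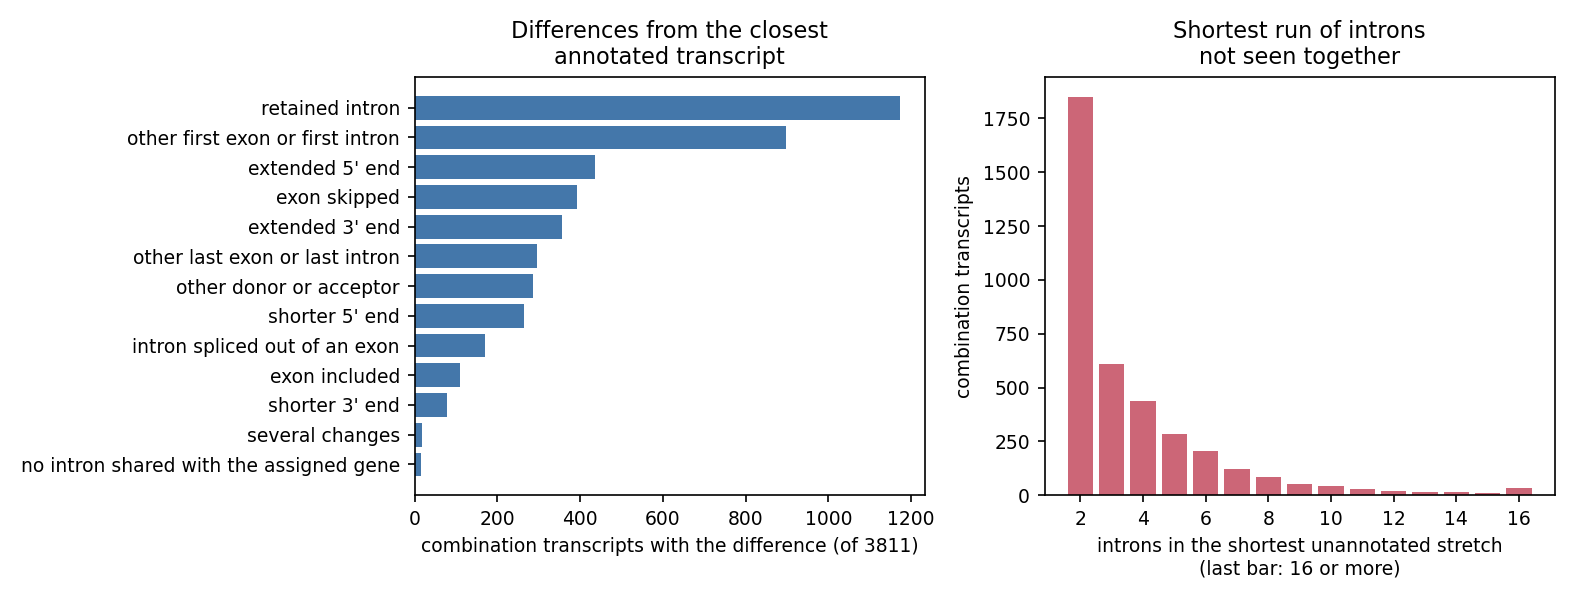
Left, number of combination transcripts (of 3811) with each kind of difference from the closest annotated transcript of the gene; a transcript can have several. Right, number of combination transcripts by the number of introns in the shortest run of consecutive introns that no annotated transcript holds without another in between. Retained introns lead with 1174 transcripts, and 1850 transcripts have a run of 2 introns.

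Set against the closest annotated transcript of the gene, 2795 combination transcripts (73.3%) differed in 1 place. A retained intron was found in 1174 (30.8%), another first exon or first intron in 897 (23.5%), a skipped exon in 392 (10.3%) and an included exon in 111 (2.91%). Another last exon or last intron was found in 297 (7.79%) and another donor or acceptor in 287 (7.53%). Retained introns were short: the 1355 introns spanned by internal exons had a median of 421 bases, against 1375 bases for the 26839 introns that the combination transcripts spliced. Skipped single exons had a median of 111.5 bases, and 48.7% of the 460 were a multiple of 3 bases long, compared with 39.4% of 118518 internal exons of annotated transcripts with at least 10 reads. Among the 190 included single exons it was 42.6%. Microexons of at most 27 bases were present in 103 combination transcripts (2.70%) and in 3.09% of unannotated transcripts with an unannotated intron. They were present in 5.46% of 20615 annotated transcripts with at least 10 reads. That set differs in its minimum of reads and in its median of 10 exons, against 8 in combination transcripts. These shares describe the annotation and were not tested.

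The reading frame was then followed from the most upstream annotated start codon to the first stop. A stop more than 50 bases before the last exon junction is the usual mark of a target of nonsense-mediated decay, the pathway that degrades messages with an early stop. Of 3523 combination transcripts in coding genes, 2870 could be read to a stop. Of these 1407 (49.0%) had such a stop, and 65.7% ended at an annotated stop codon. With at least 10 reads, the shares were 43.2% and 71.0% (1485 transcripts). In the same genes, 11.5% of 3408 annotated transcripts with at least 10 reads had a stop that early, and 93.6% ended at an annotated stop. Unannotated transcripts with an unannotated intron lay between, at 32.7% of 1969. The frame went with the kind of difference: a stop over 50 bases before the last junction was found in 88.2% of the 802 read to a stop that had an internal exon spanning an annotated intron, and in 33.8% of the 2068 without one. No decay was measured.

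**Figure D2:**
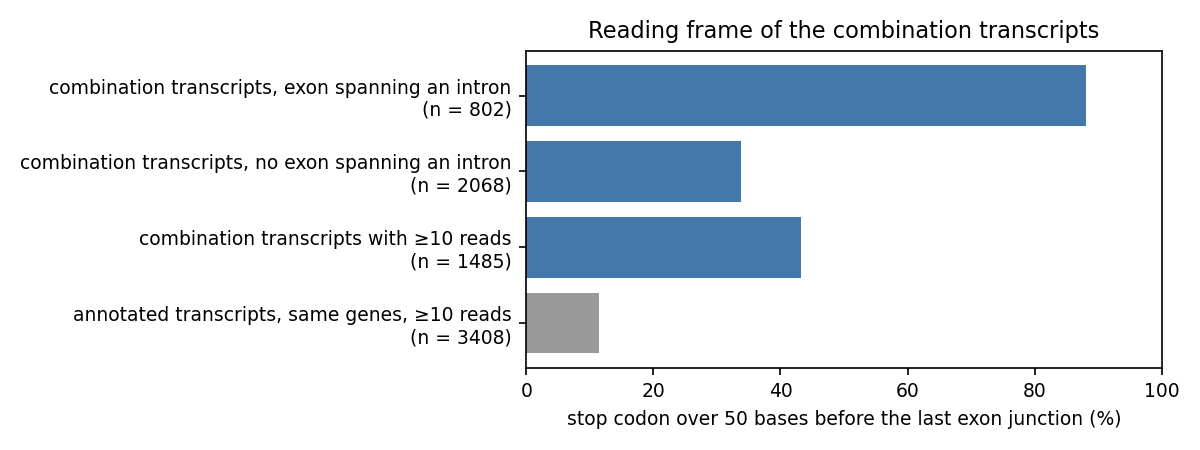
Percent of transcripts, among those read to a stop, whose stop codon lies over 50 bases before the last exon junction; n is the number read to a stop. Annotated transcripts of the same genes stand at 11.5%, and combination transcripts with an internal exon that spans an annotated intron at 88.2%.

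Depth limits what follows. Reads assigned to transcripts numbered 380226 (control), 448742 (knockdown), 317711 (azacytidine) and 288441 (both), of which 28.2%, 23.3%, 35.7% and 31.2% were full-length. TARDBP, the gene of TDP-43, had 104, 72, 73 and 43 reads, of 595158, 767621, 466337 and 477622 gene reads. All 11 neuronal markers had reads, 1637, 2036, 1440 and 1002 together. The 5 proliferation markers had 389, 403, 21 and 11 reads and the 6 neural progenitor markers 496, 495, 79 and 61, so markers of dividing and progenitor cells were low in both libraries with azacytidine. The 7 pluripotency markers (216, 276, 133 and 139 reads), the 6 mesenchymal markers (71, 75, 8 and 2, with DCN at 0), the 5 oligodendrocyte markers (65, 49, 29 and 22, with MOG at 0) and the 5 astrocyte markers (31, 33, 1 and 0, with AQP4 at 0) also had reads. Fewer cells of a type and less RNA per cell cannot be told apart here.

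Combination transcripts took 3.93% of transcript reads in the control library (95% Wilson interval 3.87 to 3.99), 3.68% in the knockdown library (3.62 to 3.73), 4.40% in the azacytidine library (4.33 to 4.48) and 5.00% with both treatments (4.92 to 5.08). Amplified molecules are not independent, so all intervals here hold for counting error alone. The share was lowest in the deepest library and highest in the shallowest; the part of depth in this order was not tested. Among full-length reads alone the shares were 5.37%, 5.50%, 5.69% and 6.91%, and there the control and knockdown intervals overlapped (5.23 to 5.50 and 5.36 to 5.64). Unannotated transcripts with an unannotated intron took 2.17%, 2.07%, 2.52% and 2.80% of all transcript reads, in the same order of libraries.

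**Figure D3:**
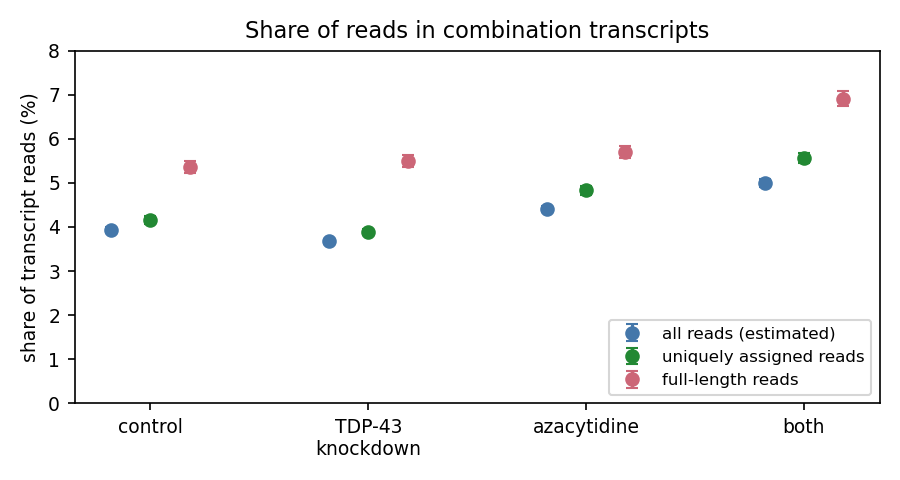
Share of transcript reads (percent) assigned to combination transcripts in each of the 4 libraries, for all, uniquely assigned and full-length reads; bars are 95% Wilson intervals. The library with both treatments is highest by each count, at 5.00%, 5.57% and 6.91%.

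Within the combination transcripts, those with an internal exon spanning an annotated intron took 25%, 25%, 24.4% and 29.1% of the reads. The first 3 values lay close together, and the combined library was above them (interval 28.3 to 29.8). Those read to a stop over 50 bases before the last junction took 39.8%, 38.6%, 41.3% and 44.1% of the reads of combination transcripts read to a stop. Chains built from annotated pairs took 2.42%, 2.22%, 2.74% and 2.95% of all transcript reads, unannotated pairs 1.31%, 1.26%, 1.43% and 1.76%, and chains across genes 0.208%, 0.196%, 0.239% and 0.290%. By these estimated reads each class had its lowest share in the knockdown library and its highest in the combined library. By full-length reads the control library was lowest in each class (3.31%, 1.90% and 0.156%, against 3.32%, 1.97% and 0.202% with knockdown), and by uniquely assigned reads it was lowest for chains across genes (0.219% against 0.225%).

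Most combination transcripts were rare. Over the 4 libraries the median was 8.92 reads, and the separate median of full-length reads was 5. At least 2 full-length reads were found for 1449 combination transcripts in the control library, 1433 in the knockdown library, 1670 with azacytidine and 1584 with both. All 4 libraries held 505 of them at that level, exactly 1 library held 1408 and none held 763. At the depth of the smallest library, 1210, 1236, 1321 and 1586 would be expected; for this the estimated counts were rounded to whole reads first, which moves the combined library's own number from 1584 to 1586. Presence in 1 library at these depths is not presence in 1 condition. Among the 1726 with at least 10 reads, 35.9% of reads were full-length and 57.9% uniquely assigned. The shares were 25.8% and 54.3% for the 20615 annotated transcripts with at least 10 reads. They were 36.4% and 59.9% for 980 unannotated transcripts with an unannotated intron at that minimum, so these values are not particular to combination transcripts.

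Some combination transcripts were nevertheless assigned a large part of their gene's reads. Among 861 whose gene had at least 20 reads in every library, 97 took at least 25% of the gene's reads in every library, and 10 took at least 50%; the latter were chosen for this value and are a description. NCAM1, a neural cell adhesion molecule, had the most reads of them. Its combination transcript (chromosome 11, 113202376 to 113278422, 18 exons) took 57.9% of the gene's reads in the control library (121 of 209), 57.6% in the knockdown library (132 of 229), 56.9% with azacytidine (120 of 211) and 59.0% with both (147 of 249). It leaves out the 3-base exon shown above, and so did a majority of NCAM1 reads in each library: the exon was held by 40.3%, 42.6%, 41.2% and 41.0%. The 4 values lay close together in both measures. These rest on nearly the same reads, since 126, 132, 124 and 147 reads lacked the exon.

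Chains across genes gave 2 of the 10. The MRPS16 transcript, assigned to a mitochondrial ribosomal protein, ran into introns of the neighbouring gene DNAJC9 and took 96 of 107, 81 of 87, 67 of 73 and 64 of 69 reads. It had 1, 0, 1 and 3 full-length reads. The APBB3 transcript carried introns of SRA1 and took 40 of 48, 23 of 30, 45 of 54 and 50 of 61 reads, with 2, 2, 2 and 4 full-length. Nearly all reads behind these values were therefore partial. The other 8 were in WSB1, CERS4, SH3PXD2B, PPHLN1, PITPNA, NCAM1, STIMATE-MUSTN1 and a gene without a symbol.

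The combination transcripts with most full-length reads were spread over several functions. GPM6B, a proteolipid of neuronal membranes, led with 26, 30, 32 and 39 full-length reads. That transcript has another last intron within an unannotated run of 6 introns and took 22.0%, 26.2%, 31.5% and 39.2% of GPM6B reads; a second GPM6B combination transcript, which starts further upstream, took 14.5%, 9.81%, 11.9% and 9.23%. HP1BP3, which binds heterochromatin protein 1, had 21, 19, 20 and 14 full-length reads on a transcript with another first intron. PKM, the pyruvate kinase of glycolysis, had 15, 8, 27 and 9, also with another first intron, and the azacytidine library stood above the rest. RSPRY1 had 19, 18, 10 and 7. In PTPRS, a receptor phosphatase of axons and synapses, there were 12, 13, 13 and 18.

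Retained introns supplied the next group. The CCNL2 transcript, from a cyclin that binds splicing kinases, keeps an intron of 1924 bases and took 79 of 106, 68 of 140, 74 of 115 and 81 of 144 reads. Over all CCNL2 transcripts that could be read for this intron, 89.8%, 78.4%, 82.2% and 81.4% of reads kept it. Nearly all reads that kept it were those of the combination transcript. HMGN1, a nucleosome-binding protein, keeps an intron of 2333 bases in its combination transcript, which took 40.4%, 48.3%, 38.5% and 54.9% of reads. Over the gene, 83.5%, 92.1%, 77.4% and 89.6% of reads held that stretch, with both knockdown libraries above both others. WSB1, part of a ubiquitin ligase, keeps 861 bases in a combination transcript with 51.1%, 61.6%, 53.5% and 62.1%. SRSF5, a splicing factor of the SR family, keeps 1215 bases, with 41.8%, 26.5%, 23.3% and 22.9%, whereas over the gene 79.1%, 92.7%, 75.3% and 71.6% of reads kept them. The frame of these 4 transcripts reached a stop over 50 bases before the last junction.

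**Figure D4:**
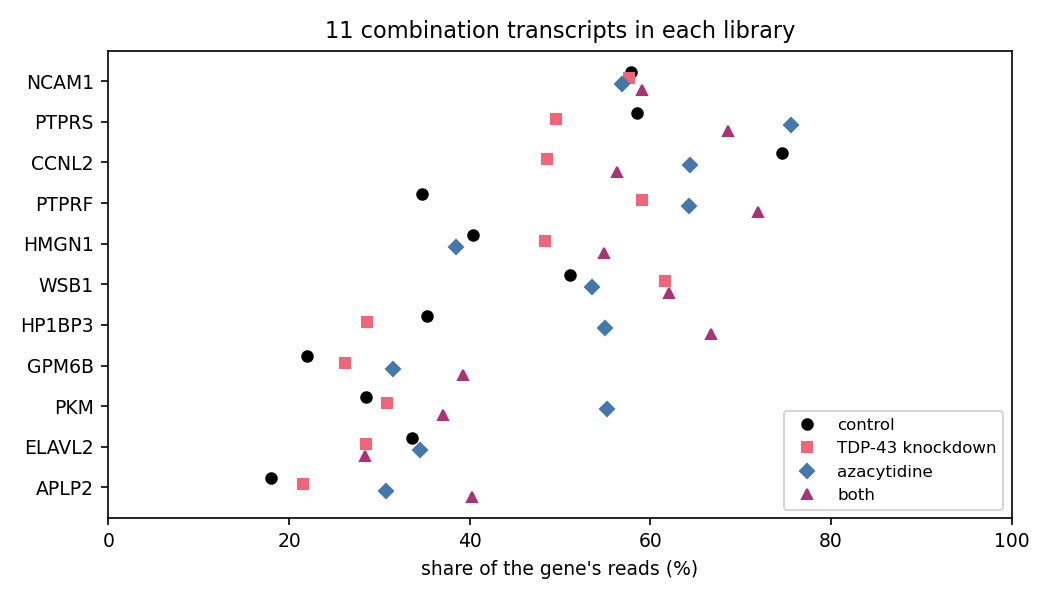
Share of the gene's transcript reads (percent) taken by 1 combination transcript of each of 11 genes, with 1 point per library; the genes were picked from those described in the text. NCAM1 stays between 56.9% and 59.0%, while APLP2, GPM6B and HP1BP3 have their 2 highest points in the libraries with azacytidine.

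Usage was then compared between libraries, as a transcript's share of its gene's reads. A call needed an adjusted p-value under 0.05 (Fisher's exact test, two-sided, Benjamini-Hochberg over 15531 transcripts), a change of 10 percentage points or more, and agreement in sign between 2 pairs with no library in common. Of the 3811 combination transcripts, 1199 had the reads to be tested. For TDP-43 knockdown, the rule called 0 of them, against 0.702% of all transcripts tested (0.361% higher, 0.341% lower). At an unadjusted p-value under 0.05, 12 passed (8 higher, 4 lower), which is 1.00% of those tested against a background of 2.11% (1.13% higher, 0.972% lower). For azacytidine, 4 were called (3 higher, 1 lower), or 0.334%, against 1.13% of all transcripts (0.489% higher, 0.637% lower). At an unadjusted p-value under 0.05 there were 20, or 1.67% against 3.21% (1.44% higher, 1.77% lower). The level of the rule was read from the knockdown pairs with the second pair turned round, so that a call means opposite directions with and without the drug. It called 0 combination transcripts, with a background of 0.528% (0.232% higher, 0.296% lower), and 6 at an unadjusted p-value, with a background of 1.33% (0.618% and 0.715%). The azacytidine pairs were not turned round in this way, so no such level was read for the azacytidine calls.

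Single pairs gave more calls by the adjusted p-value alone, each at a lower share than over all transcripts. The part of the gene's read depth in these lower shares was not tested. Knockdown had 29 without azacytidine (2.42% against 7.16% of all transcripts) and 25 with it (2.09% against 4.49%). Azacytidine had 36 without knockdown (3.00% against 5.99%) and 49 with it (4.09% against 7.47%). Such a test compares the reads of 2 libraries, not conditions. With the drug and without knockdown, 16 were higher (1.33% against 2.74% of all transcripts) and 20 lower (1.67% against 3.25%). With the drug and with knockdown, 36 were higher (3.00% against 3.61% of all transcripts) and 13 lower (1.08% against 3.86%). The difference between the 2 splits was not tested.

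The 1 call that was lower with azacytidine was in NEO1 (ENSG00000067141.17), a receptor of netrin and repulsive guidance molecules. The transcript (chromosome 15, 73052351 to 73305202, plus strand, 28 exons) leaves out the 48-base acceptor stretch shown above and does so within an unannotated run of 10 introns. It took 38.1% of NEO1 reads in the control library (32 of 84) and 57.7% in the knockdown library (79 of 137), but 11.1% with azacytidine (9 of 81) and 7.89% with both (6 of 76). Both libraries with the drug were below both without it. The change was -26.98 percentage points without knockdown (adjusted p = 0.00255, Fisher's exact test) and -49.77 with it (adjusted p = 5.26e-11). Over all NEO1 transcripts, the stretch was held by 48.8%, 40.1%, 88.8% and 92.2% of reads. The reads without it numbered 43, 82, 9 and 6. Most were those of the combination transcript itself, so this is no separate measure of that transcript. Uniquely assigned reads numbered 6, 24, 3 and 3, and with these alone the change without knockdown was -9.07 percentage points (adjusted p = 1.0, Fisher's exact test), so the call was lost.

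The PXDN call (ENSG00000130508.11, chromosome 2, 1631887 to 1744529, minus strand) was higher with azacytidine. PXDN encodes peroxidasin, an enzyme that crosslinks collagen IV in basement membranes, and its combination transcript includes an exon of 65 bases that shifts the frame to an early stop. It took 13.3% in the control library (11 of 83), 0% in the knockdown library (0 of 86), 42.9% with azacytidine (21 of 49) and 47.7% with both (31 of 65). The changes were 29.6 percentage points without knockdown (adjusted p = 0.00792, Fisher's exact test) and 47.7 with it (adjusted p = 1.09e-11). Only 2, 0, 3 and 8 reads were uniquely assigned, and 1, 0, 1 and 5 were full-length. Over the gene the exon was held by 13.6%, 2.44%, 43.8% and 50% of the reads that could tell. The reads holding it numbered 11, 2, 21 and 31 and were nearly all those of the called transcript, so this is no separate measure.

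PTPRS (ENSG00000105426.19) had the most abundant of the called transcripts (chromosome 19, 5205503 to 5340852, minus strand, 29 exons). It has an extended 5′ end and an unannotated run of 17 introns. Its share was 58.5% in the control library (113 of 193) and 49.5% in the knockdown library (162 of 327), against 75.5% with azacytidine (111 of 147) and 68.6% with both (142 of 207). The changes were 16.96 percentage points (adjusted p = 0.0258, Fisher's exact test) and 19.06 (adjusted p = 0.000634). The transcript also holds a coding microexon of 12 bases, and 100% of informative PTPRS reads in every library were assigned to transcripts that hold it. No annotated transcript counted here splices the microexon out, so this value was largely fixed in advance and measures no inclusion. By uniquely assigned reads the combination transcript had 57, 96, 66 and 91. With no minimum beyond 1 read, the adjusted p-value without knockdown was 0.0978 (Fisher's exact test), which ended the call.

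PUM2 (ENSG00000055917.17), an RNA-binding repressor of translation, skips the 237-base exon shown above in its combination transcript (chromosome 2, 20248744 to 20350850, minus strand, 20 exons). The transcript took 11.4% in the control library (17 of 149), 14.2% in the knockdown library (34 of 240), 27.5% with azacytidine (25 of 91) and 29.1% with both (41 of 141). The changes were 16.06 percentage points (adjusted p = 0.0455, Fisher's exact test) and 14.9 (adjusted p = 0.0148). The call was lost with uniquely assigned reads (adjusted p = 1.0 and 0.404 by Fisher's exact test) and with no minimum beyond 1 read (0.168 and 0.057). Over all PUM2 reads the exon was held by 82.4%, 85.4%, 72.5% and 70.7%. The reads without it numbered 26, 35, 25 and 41 and were mostly those of the combination transcript, so this is no separate measure. All 4 calls were made between libraries that also differ in proliferation and progenitor markers, whose part in the result was not tested.

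**Figure D5:**
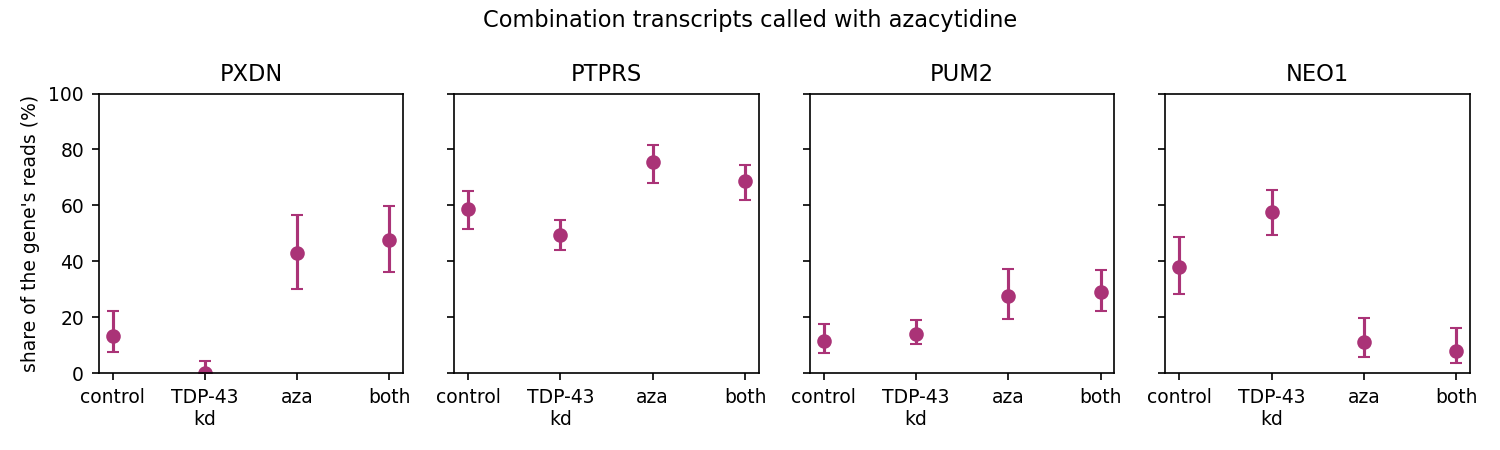
Share of the gene's reads (percent) taken by the 4 combination transcripts called with azacytidine, by library (kd, knockdown; aza, azacytidine; bars, 95% Wilson intervals). PXDN, PTPRS and PUM2 are higher in both libraries with the drug, and NEO1 is lower, at 11.1% and 7.89%.

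Some combination transcripts that did not pass the call are given for their sequence, chosen after their values were seen. RAPGEF4, an exchange factor activated by cyclic AMP, skips the 54-base exon shown above. Its transcript took 16 of 28 reads in the control library and 15 of 22 with azacytidine, but 7 of 29 with knockdown and 2 of 23 with both (adjusted p = 0.145 and 0.00223, Fisher's exact test). The exon was held by 25% and 31.8% of RAPGEF4 reads in the libraries without the TDP-43 guide and by 69.0% and 91.3% with it. Most RAPGEF4 reads without the exon were those of the combination transcript, so this is no separate measure. LRCH3, a leucine-rich repeat protein, was also lower in both libraries with the guide: its transcript without the 108-base exon took 19 of 49 and 26 of 53 reads without the guide, and 17 of 84 and 10 of 49 with it (adjusted p = 0.209 and 0.0706, Fisher's exact test).

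With azacytidine, MSI1, the RNA-binding protein Musashi of neural progenitors, had 12 of 46 reads on the transcript without the 57-base exon in the control library and 18 of 63 with knockdown. There were 0 of 45 with azacytidine and 5 of 55 with both (adjusted p = 0.00681 and 0.102, Fisher's exact test). PTPRF, a receptor phosphatase related to PTPRS, had 26 of 75, 91 of 154, 45 of 70 and 92 of 128 reads on its combination transcript (adjusted p = 0.0122 and 0.227 for azacytidine, Fisher's exact test). The 27-base microexon shown above was held by 47.4% of PTPRF reads in the control library and by 75.3%, 85.3% and 89.0% in the others. The control library was below the other 3. Most reads holding the microexon were those of the combination transcript, so this is no separate measure.

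Genes known to respond to loss of TDP-43 were described next. Of 35 listed genes, 5 had combination transcripts, 8 in all, of which 4 could be tested and 0 were called. Over the whole annotation, which also holds genes that are not expressed, 2932 of 77973 genes (3.76%) had them. Calls over all transcripts tested were 0.702% for knockdown and 1.13% for azacytidine. CYFIP2, a regulator of actin, had 31 of 98, 19 of 87, 30 of 115 and 32 of 113 reads. DNAJC6, the auxilin that uncoats clathrin vesicles, had 13 of 48, 10 of 40, 32 of 56 and 24 of 58. In CELF5, an RNA-binding protein, 3 combination transcripts together made up most of the gene's reads in all libraries but the combined one, where the gene had 6 reads. The most abundant of them by full-length reads had 25, 17, 27 and 2 reads. MNAT1 had 4, 0, 3 and 1 reads, and the 2 in ACTL6B had at most 4 in any library.

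The other lists were described by counts and were not tested as sets. Over all transcripts tested, 0.489% were called higher and 0.637% lower with azacytidine, and 0.702% were called for knockdown. Of 45 adhesion and guidance genes, 11 had 13 combination transcripts, and of the 10 tested 1 was higher and 1 lower with azacytidine (PTPRS and NEO1). APLP2 in that list took 18%, 21.6%, 30.8% and 40.3% with the transcript lacking the Kunitz exon; over the gene that exon was held by 50.5%, 50.5%, 41.0% and 47.9% of reads. Of 73 splicing regulators and RNA-binding proteins, 19 had 28 combination transcripts, 21 of them tested and 0 called. ELAVL2, a neuronal RNA-binding protein, had 45 of 134, 52 of 182, 31 of 90 and 19 of 67 reads on a transcript with another first exon. Of 59 synapse genes 7 had 10 transcripts, among them DNM1, the neuronal dynamin, with 22 of 52, 24 of 63, 46 of 91 and 39 of 102 reads. Of 60 cytoskeleton and axon genes 7 had 8. By full-length reads ANK3, the ankyrin of the axon initial segment, led with 13 of 132, 30 of 198, 23 of 117 and 24 of 118 reads, and SEPTIN2, a filament-forming septin, followed with 27 of 124, 57 of 164, 30 of 101 and 25 of 84. Chromatin genes (63 listed) had 5, led by full-length reads by PHF21A, part of a histone demethylase complex, with 18 of 75, 23 of 107, 29 of 64 and 25 of 87. The ubiquitin, trafficking and kinase list (50 genes) had 13.

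Combination transcripts in proliferation genes had fewer reads in both libraries with azacytidine. There were 11 in 7 of 25 genes, with 75, 75, 16 and 7 reads. CDK1, the mitotic kinase, had 21 of 48 and 15 of 50 reads on a transcript that keeps an intron of 2272 bases, and 0 of 5 and 0 of 0 with azacytidine. Pluripotency genes had 3, of which 2 lay in DNMT3B, a DNA methyltransferase. The first DNMT3B transcript took 12 of 48, 18 of 62, 10 of 20 and 17 of 28 reads, and the second 16 of 48, 7 of 62, 7 of 20 and 4 of 28.

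Last, levels were compared with an additive model over the 4 libraries, in which the interaction is the only measure of error. Of 24797 transcripts, 1792 were combination transcripts. With edgeR's quasi-likelihood test, 0 of all transcripts (0.0%) and 0 combination transcripts were called for either treatment (adjusted p-value under 0.05 and a log2 fold change of at least 1). At an unadjusted p-value under 0.05 with that fold, 65 combination transcripts passed for knockdown (3.63% against 5.3% of all) and 131 for azacytidine (7.31% against 12.7%). For azacytidine 58 of these were higher and 73 lower; scaled by total counts the split was 79 and 53, since that scaling moves the median of all transcripts by 0.15 on the log2 scale. DESeq2 called 1 transcript (0.00403%) for knockdown and 119 (0.48%) for azacytidine, with 0 combination transcripts in either; at an unadjusted p-value they numbered 15 and 25, with backgrounds of 1.17% and 4.72%. The median log2 fold change was 0.07 for knockdown (0.02 over all) and 0.19 for azacytidine (-0.03 over all).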

How the data were processed

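Transcripts of 4 libraries, 1 per group, were analysed. Per the file headers, minimap2, hg38 and Bambu were used; versions and settings are not given in the sources used here. The deposited tables hold estimated counts (genes, transcripts, full-length), which are fractional for transcripts, and whole counts (uniquely assigned). One annotation serves all libraries. Uniquely assigned counts and, apart from rounding, gene counts were all even, so 2 counts were taken as 1 read in every table, halved and rounded.

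Transcripts were selected from the deposited annotation by their exons and introns, and compared with its annotated transcripts. Symbols matched 2757 of 2932 genes. Frames and sequences came from GENCODE 29. Usage tests needed at least 10 reads for the transcript, a mean of at least 20 for its gene and 2 transcripts per gene (Python 3.11.15, scipy 1.17.1). The pairs were knockdown against control and both against azacytidine, or azacytidine against control and both against knockdown. Levels were tested with edgeR 4.0.16 (TMM), with DESeq2 1.42.0 as an alternative. The tests were tried on simulated data, with changes larger and reads more numerous than the minimum used here. Smaller changes and genes with fewer reads were not covered by that trial. Strand use in counting was not stated, so reads of overlapping genes may be shared.

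Transcripts named were the 6 highest and 6 lowest calls of each comparison, the 8 with most full-length reads, the 3 with most in each structural class or gene list, and all in the TDP-43 list; others are marked as chosen after their values were seen. The members and lists were chosen with earlier results of these data known. The result of 1 further gene list is not reported here.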

Additional observations from a re-analysis of the deposited data

How the results depend on the processing

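No paired analysis was possible because each group has 1 library. Knockdown usage calls stayed at 0 under all alternatives except unhalved counts (27 of 2229 tested, 1.21% against 1.65% of all transcripts). Over all transcripts, knockdown calls were 0.0624% with uniquely assigned reads and 0.131% with full-length reads. Azacytidine usage calls (4) became 1 of 506 with uniquely assigned reads (0.198% against 0.172% of all transcripts). They became 0 of 230 with full-length reads (against 0.393% of all) and 45 with unhalved counts (2.02% against 2.66%). There were 2 with no minimum beyond 1 read (0.0544% against 0.169%) and 2 at 20 percentage points (0.167% against 0.921%). With a mean of at least 50 gene reads, 4 of 304 were called (1.32% against 2.14%). At an unadjusted p-value there, azacytidine had 3.95% against 4.22% (3.29% against 1.85% higher, 0.658% against 2.38% lower). Knockdown had 0.329% against 2.27%. Fewer transcripts were tested with uniquely assigned and with full-length reads. Crosswise calls became 7 with unhalved counts (0.314% against 0.985%). Of 30 values of the called transcripts under alternatives, 24 stayed past the threshold, 6 did not and 0 changed direction. The 6 were NEO1 without knockdown and PUM2 in both pairs with uniquely assigned reads, and PTPRS without knockdown and PUM2 in both pairs with no minimum. The 30 leave out what could not be tested: PXDN with uniquely assigned reads, and all 4 transcripts with full-length reads. They include unhalved counts and a minimum of 50 gene reads, which rest on the same reads as the main test and are weak checks.

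Level calls were 11 (knockdown, 0.289% against 0.401% of all transcripts) and 43 (azacytidine, 1.13% against 1.92%) with no filter beyond 1 read, and 6 (0.512% against 1.18%) and 25 (2.13% against 7.09%) with uniquely assigned reads; the cause was not tested. The shares of reads (control, knockdown, azacytidine, both) were 4.16%, 3.88%, 4.83% and 5.57% uniquely assigned, 5.37%, 5.50%, 5.69% and 6.91% full-length, and 4.02%, 3.76%, 4.51% and 5.10% of multi-exon reads. With 1 full-length read, 2554, 2422, 2624 and 2537 transcripts were detected. Low depth limits calls: 1199 of 3811 combination transcripts could be tested for usage.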
